A study of Mus musculus with 2 samples.

Results

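The 36 genes described here make, move and remove cholesterol, or control these steps, and all 36 were found among the 27998 genes counted in both single-nucleus RNA libraries of mouse whole brain. Of them, 18 encode enzymes of synthesis, 7 control the pathway, 9 belong to transport and storage in lipoproteins, membranes and lysosomes, and 2 belong to turnover. The set was chosen by a value measured in these same libraries, the higher level of Mvd in irradiated astrocytes, so the Mvd value in astrocyte-like nuclei is a description, and the question was whether the other members followed it. The WBRT-28d library came from whole brains that had received 5 fractions of 2 Gy, 10 Gy in all, 28 days earlier. The ShamRT-28d library came from mock-irradiated brains, which the labels call untreated. Both used female C57BL/6J mice bought at 4 to 6 weeks of age, with the frozen brains of 2 mice pooled before nuclei were isolated. With 1 library per condition and no map of nuclei to mice, no difference between conditions could be tested, and every interval below is an exact 95% interval that covers counting error only.

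Cholesterol does not cross from the blood into the brain, so brain cells make their own. In the adult brain astrocytes are known for making much of it and for passing it on in particles that carry apolipoprotein E, while oligodendrocytes make it for myelin during development and neurons rely in part on what astrocytes supply. The pathway runs from acetyl-CoA over mevalonate to farnesyl pyrophosphate, which also feeds the isoprenoids, and then over squalene and lanosterol to cholesterol. The transcription factor SREBP2, encoded by Srebf2, is released from the endoplasmic reticulum when sterols are low and switches on most of these enzymes together, and LXR receptors respond to excess sterol with the export genes.

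The WBRT-28d library held 13674 nuclei after filters, with a median of 2345 UMIs per nucleus (unique molecular identifiers, each standing for 1 captured RNA molecule), and the ShamRT-28d library 10019 nuclei with a median of 2196 UMIs. Of all barcodes, 43 occurred in both libraries. Nuclei were clustered without the 36 members, and clusters were named from other marker genes. Of 34 clusters, 30 were named, and 11 classes held at least 100 nuclei in each library. The astrocyte-like class held 1434 nuclei of WBRT-28d and 719 of ShamRT-28d in 3 clusters, with 4069481 UMIs in WBRT-28d and 1852921 UMIs in ShamRT-28d. Levels are given as CPM, the UMIs of a gene among 1000000 UMIs of the class in that library, and ratios are WBRT-28d over ShamRT-28d. The summed CPM of 12 astrocyte markers in the astrocyte-like class was 28767 in WBRT-28d and 26907 in ShamRT-28d, a ratio of 1.07. RNA of neurons was found in all glial classes, and more so in WBRT-28d: in astrocyte-like nuclei 8 neuron genes stood at a median of 19.8% of their mean over the library in WBRT-28d and 12.3% in ShamRT-28d. This measure of free RNA is given below as the share of a gene's level that it would predict.

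The promoters of the synthesis genes are shown first, since SREBP factors are known to act there together with the CCAAT-binding factor NF-Y. RefSeq windows on GRCm38.p6, reaching from 250 bases before to 50 bases after the start, matched 28 of the 36 members, and for a gene with several windows the first listed was taken. The letters CCAAT, searched on both strands, stood in 13 of 15 windows of synthesis genes (86.7%), in 7 of 13 windows of the other members (53.8%) and in 37.9% of all 27025 windows. The core of the classical sterol regulatory element, searched as TCACNCCAC on both strands, stood in 1 member, Hmgcs1, and in 1.22% of all windows. The windows of Mvd and of 3 other synthesis genes whose astrocyte level was at least 1.5-fold higher in WBRT-28d follow, 5′ to 3′ on the strand of the gene, with both motifs in capitals (ATTGG is CCAAT on the other strand). They are Mvd at chr8:122443373-122443672 (minus strand), Mvk at chr5:114444019-114444318 (plus), Hmgcs1 at chr13:119690101-119690400 (plus) and Lss at chr10:76531355-76531654 (plus).
Mvd: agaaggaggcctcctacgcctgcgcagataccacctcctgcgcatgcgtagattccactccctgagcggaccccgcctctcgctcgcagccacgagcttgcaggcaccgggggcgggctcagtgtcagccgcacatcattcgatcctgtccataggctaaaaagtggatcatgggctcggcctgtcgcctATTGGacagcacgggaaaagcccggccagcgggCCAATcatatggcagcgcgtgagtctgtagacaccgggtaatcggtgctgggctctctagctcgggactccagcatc
Mvk: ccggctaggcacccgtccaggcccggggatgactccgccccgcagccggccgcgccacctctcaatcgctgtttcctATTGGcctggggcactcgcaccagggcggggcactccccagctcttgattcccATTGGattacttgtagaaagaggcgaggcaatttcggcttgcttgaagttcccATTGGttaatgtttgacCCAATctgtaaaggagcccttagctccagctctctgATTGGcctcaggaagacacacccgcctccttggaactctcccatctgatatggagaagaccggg
Hmgcs1: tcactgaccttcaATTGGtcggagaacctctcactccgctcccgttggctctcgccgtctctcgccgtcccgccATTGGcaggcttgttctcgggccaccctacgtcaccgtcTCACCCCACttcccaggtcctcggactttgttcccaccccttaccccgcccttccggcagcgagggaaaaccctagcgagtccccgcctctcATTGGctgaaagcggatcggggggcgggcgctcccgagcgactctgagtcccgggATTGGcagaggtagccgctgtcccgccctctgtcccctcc
Lss: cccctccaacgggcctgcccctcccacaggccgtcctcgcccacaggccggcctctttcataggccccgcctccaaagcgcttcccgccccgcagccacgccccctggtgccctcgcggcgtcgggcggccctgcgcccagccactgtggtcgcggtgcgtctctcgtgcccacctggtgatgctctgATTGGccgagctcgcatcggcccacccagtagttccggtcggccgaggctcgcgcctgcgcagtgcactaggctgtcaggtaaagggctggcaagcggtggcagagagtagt
In the Hmgcs1 window the sterol element core lay from position -137 to -129 relative to the start, between CCAAT copies that began at -176 and -45. Mvk held 5 CCAAT copies, Hmgcs1 held 4, Mvd held 2 and Lss held 1. Of the other genes past 1.5-fold, Nsdhl held 4 CCAAT copies and Acat2 held neither motif. A match is a description of letters, and binding was not measured.

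In astrocyte-like nuclei Mvd, which encodes the decarboxylase that ends the mevalonate segment by forming isopentenyl pyrophosphate, had 140 UMIs in WBRT-28d and 23 in ShamRT-28d. This was 34.4 CPM in WBRT-28d and 12.4 CPM in ShamRT-28d, a ratio of 2.77 (1.77 to 4.52), and it is the value on which the set was chosen. At least 1 Mvd UMI was found in 8.51% (7.11 to 10.1, exact binomial) of 1434 astrocyte-like nuclei of WBRT-28d and in 3.06% (1.93 to 4.6) of 719 of ShamRT-28d. The median nucleus held 2541 UMIs in WBRT-28d and 2212 UMIs in ShamRT-28d. After each nucleus was thinned to 1000 UMIs, which left out 0 shallower nuclei of WBRT-28d and 36 of ShamRT-28d, the share was 3.32% in WBRT-28d and 1.6% in ShamRT-28d. In oligodendrocyte-like nuclei, where Mvd was low, the unthinned share was 1.47% in WBRT-28d and 1.18% in ShamRT-28d, at median depths of 2127 UMIs in WBRT-28d and 2147 UMIs in ShamRT-28d. Over the 11 classes the Mvd ratio was above 1 in 8 and below 1 in 3. In striatal spiny neuron-like nuclei, for one, there were 15 Mvd UMIs in WBRT-28d and 2 in ShamRT-28d. The Mvd UMIs were spread over nuclei: 16 astrocyte-like nuclei of WBRT-28d and 1 of ShamRT-28d held 2 or more, and the most in 1 nucleus was 4. Mvd (chromosome 8, 122433601 to 122443422, minus strand) overlaps the gene Gm20388 on the opposite strand. All 3 astrocyte-like clusters gave a higher Mvd level in WBRT-28d, but the smaller clusters rested on 12 UMIs in WBRT-28d and 2 in ShamRT-28d each.

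Other enzymes of synthesis stood higher as well. Of the 17 synthesis genes other than Mvd, all with 20 UMIs or more in the libraries together, 6 were at least 1.5-fold higher in WBRT-28d astrocyte-like nuclei (Acat2, Hmgcs1, Mvk, Fdps, Lss and Nsdhl) and 0 at least 1.5-fold lower. Over all 12548 genes with at least 20 UMIs in this class, 8.86% were at least 1.5-fold higher and 10.4% at least 1.5-fold lower. The ratio was above 1 for 14 of the 17 and for 46.5% of all genes, and the median log2 ratio was 0.31, against -0.03 over all genes. Summed over the 17 genes, the level was 1034 CPM (4209 UMIs) in WBRT-28d and 818 CPM (1516 UMIs) in ShamRT-28d, a ratio of 1.26 (1.19 to 1.34). When called doublets were kept, the summed ratio was 1.1 and the median log2 ratio 0.11, and 3 of the 17 were at least 1.5-fold higher (Acat2, Mvk and Fdps) and 1 lower (Tm7sf2), where 11.6% of all genes were higher and 10.96% lower.

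**Figure D1:**
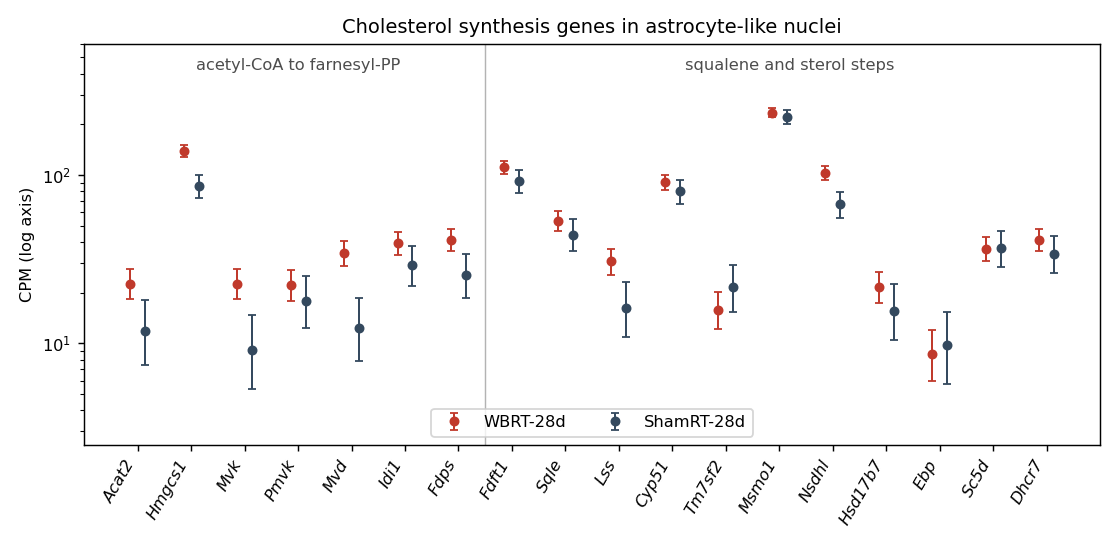
CPM (log axis) of the 18 synthesis genes in astrocyte-like nuclei, in pathway order, for WBRT-28d (red, left of each pair) and ShamRT-28d (dark, right), with exact Poisson 95% intervals from counting error. Mvd is the gene on which the set was chosen. The other 6 genes on the way to farnesyl pyrophosphate were higher in WBRT-28d, from Pmvk (22.1 CPM in WBRT-28d, 17.8 CPM in ShamRT-28d) to Mvk (22.6 CPM in WBRT-28d, 9.17 CPM in ShamRT-28d), while among the 11 later steps Msmo1 (235 CPM in WBRT-28d, 222 CPM in ShamRT-28d) and Sc5d (36.4 CPM in WBRT-28d, 36.7 CPM in ShamRT-28d) were nearly level.

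The first steps make mevalonate. Acat2, the cytosolic thiolase that joins acetyl-CoA units, had 22.6 CPM in WBRT-28d and 11.9 CPM in ShamRT-28d, a ratio of 1.90 (1.19 to 3.19). Hmgcs1, the synthase of the next step, had 139 CPM (566 UMIs) in WBRT-28d and 85.8 CPM (159 UMIs) in ShamRT-28d, a ratio of 1.62 (1.36 to 1.94). Both were above their ShamRT-28d level by more than the counting error. The following kinases, Mvk and Pmvk, add phosphates to mevalonate. Mvk had 22.6 CPM (92 UMIs) in WBRT-28d and 9.17 CPM (17 UMIs) in ShamRT-28d, a ratio of 2.46 (1.46 to 4.41). Pmvk had 22.1 CPM in WBRT-28d and 17.8 CPM in ShamRT-28d, a ratio of 1.24 whose interval held 1 (0.825 to 1.91). Idi1, the isomerase that balances the isoprene units, had 39.6 CPM in WBRT-28d and 29.1 CPM in ShamRT-28d, a ratio of 1.36 (0.992 to 1.88). Fdps, which builds farnesyl pyrophosphate, had 41.3 CPM in WBRT-28d and 25.4 CPM in ShamRT-28d, a ratio of 1.63 (1.17 to 2.30), and it overlaps Gm43738 on the same strand, so its counts are uncertain to that extent. Summed without Mvd, the 6 genes of this segment stood at 287 CPM in WBRT-28d and 179 CPM in ShamRT-28d, a ratio of 1.6 (1.42 to 1.82).

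The sterol segment differed less as a whole, with a summed level of 747 CPM in WBRT-28d and 639 CPM in ShamRT-28d over 11 genes, a ratio of 1.17 (1.09 to 1.251). Fdft1, the squalene synthase, had 111 CPM in WBRT-28d and 91.7 CPM in ShamRT-28d, a ratio of 1.21 (1.01 to 1.45). Sqle, which oxidises squalene and is a known control point, had 53.6 CPM in WBRT-28d and 44.3 CPM in ShamRT-28d, a ratio of 1.21 (0.935 to 1.58). Lss, which closes the rings to lanosterol, was the furthest apart here, with 30.7 CPM (125 UMIs) in WBRT-28d and 16.2 CPM (30 UMIs) in ShamRT-28d, a ratio of 1.90 (1.27 to 2.93). Cyp51, the lanosterol demethylase, had 90.4 CPM in WBRT-28d and 79.9 CPM in ShamRT-28d. Msmo1, the oxidase that starts the removal of the next methyl groups, had 235 CPM (956 UMIs) in WBRT-28d and 222 CPM (412 UMIs) in ShamRT-28d, a ratio of 1.06 (0.94 to 1.19). Nsdhl, its partner in that demethylation, had 103 CPM (419 UMIs) in WBRT-28d and 66.9 CPM (124 UMIs) in ShamRT-28d, a ratio of 1.54 (1.26 to 1.90). These enzymes thus gave unlike ratios although they act one after the other. Dhcr7, the last reductase of one branch, had 41.3 CPM in WBRT-28d and 34.0 CPM in ShamRT-28d, a ratio of 1.21 (0.904 to 1.65), Hsd17b7 had 21.6 CPM in WBRT-28d and 15.7 CPM in ShamRT-28d, and Sc5d, the lathosterol desaturase, had 36.4 CPM in WBRT-28d and 36.7 CPM in ShamRT-28d. Only Tm7sf2, a sterol reductase, Ebp, the sterol isomerase, and Sc5d had ratios below 1 among the 17, with Tm7sf2 at 15.7 CPM in WBRT-28d and 21.6 CPM in ShamRT-28d and Ebp at 8.6 CPM in WBRT-28d and 9.71 CPM in ShamRT-28d, both with intervals that held 1. Tm7sf2 overlaps Vps51 on the same strand, and Fdft1, Lss and Cyp51 overlap other genes on the opposite strand. Free RNA would predict 4.1% to 19% of the levels of the synthesis genes in WBRT-28d and 2.80% to 16.3% in ShamRT-28d, and with it subtracted 6 of the 17 were still at least 1.5-fold higher and 0 lower, where 6.75% of all genes were higher and 20.5% lower.

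The astrocyte-like clusters did not give 1 picture. Cluster 2, led by Grin2c and Gldc and holding 1064 nuclei of WBRT-28d and 565 of ShamRT-28d, had a summed level of the 17 genes of 1067 CPM in WBRT-28d and 801 CPM in ShamRT-28d, a ratio of 1.33 (1.24 to 1.43). Cluster 20, led by Myoc, Gfap and Aqp4 (157 nuclei of WBRT-28d and 82 of ShamRT-28d), had 1289 CPM in WBRT-28d and 1009 CPM in ShamRT-28d, a ratio of 1.28 (1.1 to 1.49). Cluster 19, led by Itih3, Etnppl and Agt (213 nuclei of WBRT-28d and 72 of ShamRT-28d), had 675 CPM in WBRT-28d and 704 CPM in ShamRT-28d, a ratio of 0.958 (0.784 to 1.18). The segment up to farnesyl pyrophosphate without Mvd and the sterol segment had ratios of 1.83 (1.59 to 2.13) and 1.21 (1.12 to 1.30) in cluster 2, 1.29 (0.968 to 1.72) and 1.27 (1.06 to 1.53) in cluster 20, and 1.03 (0.681 to 1.59) and 0.936 (0.743 to 1.19) in cluster 19. In cluster 2 alone Hmgcs1 had a ratio of 1.94, Mvk 3.16, Nsdhl 1.80 and Fdps 1.88, and in cluster 19 Hmgcs1 had 1.03, Mvk 0.772, Nsdhl 1.44 and Fdps 0.989. Cluster 19 held 5 UMIs of Mvk in WBRT-28d against 2 in ShamRT-28d, and the difference between clusters was not tested.

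**Figure D2:**
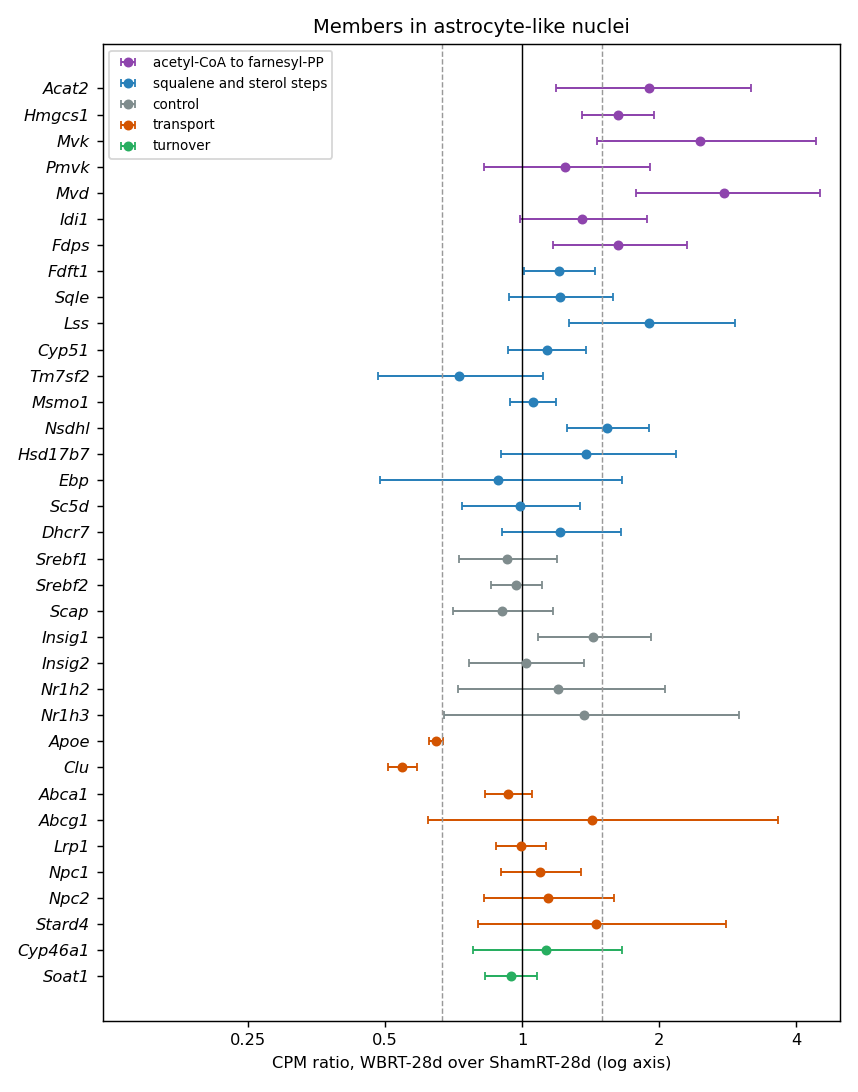
Ratio of CPM, WBRT-28d over ShamRT-28d (log axis), in astrocyte-like nuclei for the 35 members that reached 20 UMIs in the libraries together, coloured by role, with exact 95% intervals from counting error; dashed lines mark 1.5 and its inverse. The 6 genes up to farnesyl pyrophosphate other than Mvd lie right of 1, Apoe (0.646) and Clu (0.545) lie left of the lower line, and the control genes lie around 1.

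The genes that control the pathway were nearly level. Srebf2 had 188 CPM (766 UMIs) in WBRT-28d and 194 CPM (359 UMIs) in ShamRT-28d, a ratio of 0.972 (0.856 to 1.1). Srebf1, whose product drives mainly fatty acid synthesis, had 49.1 CPM in WBRT-28d and 52.9 CPM in ShamRT-28d, and Scap, the escort that carries SREBP to the Golgi, had 47.9 CPM in WBRT-28d and 52.9 CPM in ShamRT-28d. Their transcript levels thus differed little, and the processing of the proteins was not measured. Insig1, which holds the Scap complex back and is itself a known SREBP target, had 51.1 CPM in WBRT-28d and 35.6 CPM in ShamRT-28d, a ratio of 1.43 (1.08 to 1.92), while its relative Insig2 had 39.1 CPM in WBRT-28d and 38.3 CPM in ShamRT-28d. The LXR genes were low: Nr1h2 had 58 UMIs in WBRT-28d against 22 in ShamRT-28d, and Nr1h3 had 33 UMIs in WBRT-28d against 11 in ShamRT-28d, with ratios of 1.20 and 1.37 whose intervals held 1. None of the 7 control genes was past 1.5-fold, where 8.86% of all genes were higher and 10.4% lower.

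No gene of transport was at least 1.5-fold higher, and Apoe and Clu were lower. Apoe, which encodes the main apolipoprotein of the brain, had 1835 CPM (7467 UMIs) in WBRT-28d astrocyte-like nuclei and 2840 CPM (5263 UMIs) in ShamRT-28d, a ratio of 0.646 (0.624 to 0.669). Clu, or clusterin, which also forms lipoprotein particles in the brain, had 393 CPM (1598 UMIs) in WBRT-28d and 720 CPM (1334 UMIs) in ShamRT-28d, a ratio of 0.545 (0.507 to 0.587). Both were lower in WBRT-28d in each of the 3 astrocyte-like clusters, with ratios of 0.615, 0.722 and 0.790 for Apoe and 0.558, 0.424 and 0.646 for Clu in clusters 2, 19 and 20. In cluster 19 both were thus lower although the summed synthesis genes were not higher. The exporter Abca1, which loads lipid onto apolipoproteins, had 209 CPM in WBRT-28d and 224 CPM in ShamRT-28d, a ratio of 0.933 (0.828 to 1.05). Lrp1, a receptor that takes up apolipoprotein E particles, had 190 CPM in WBRT-28d and 192 CPM in ShamRT-28d, Npc1, which with Npc2 releases cholesterol from lysosomes, had 82.3 CPM in WBRT-28d and 75 CPM in ShamRT-28d, Npc2 had 33.2 CPM in WBRT-28d and 29.1 CPM in ShamRT-28d, and Stard4, a carrier of sterol within the cell, had 11.8 CPM in WBRT-28d and 8.10 CPM in ShamRT-28d. In turnover, Soat1, which esterifies cholesterol for storage, had 175 CPM in WBRT-28d and 186 CPM in ShamRT-28d, and Cyp46a1, the 24-hydroxylase by which neurons clear cholesterol, had 25.6 CPM in WBRT-28d and 22.7 CPM in ShamRT-28d, of which free RNA would predict 21.5% in WBRT-28d and 15.9% in ShamRT-28d. Abcg1, another exporter, had 25 UMIs in WBRT-28d and 8 in ShamRT-28d, fewer than free RNA would predict, and Lpl, the lipoprotein lipase, had 5 in each and was the only member under 20 UMIs in this class. Of the 17 measured genes of transport, turnover and control, 0 were at least 1.5-fold higher and 2 at least 1.5-fold lower, where 8.86% and 10.4% of all genes were, and their median log2 ratio was 0.03, against -0.03 over all genes.

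Genes next to the pathway, listed by function, gave a mixed picture in astrocyte-like nuclei, where 8.86% of all genes were at least 1.5-fold higher and 10.4% lower. The isoprenoid branch, which uses farnesyl pyrophosphate for ubiquinone, dolichol and protein prenylation, had 0 of 10 genes past 1.5-fold and a summed ratio of 1.07 (0.985 to 1.16). Its genes with the most UMIs were Pdss2 (147 CPM in WBRT-28d and 131 CPM in ShamRT-28d), Dhdds (64.6 CPM in WBRT-28d and 65.3 CPM in ShamRT-28d) and Ggps1 (54.6 CPM in WBRT-28d and 50.7 CPM in ShamRT-28d). The machinery that cuts SREBP and degrades enzymes of the pathway had 0 of 9 past 1.5-fold, with Ubac2 at 98.8 CPM in WBRT-28d and 78.3 CPM in ShamRT-28d and Mbtps2 at 46.4 CPM in WBRT-28d and 41.6 CPM in ShamRT-28d. Fatty acid synthesis had 4 of 12 genes at least 1.5-fold higher and 0 lower. Acly, which makes cytosolic acetyl-CoA, had 66.1 CPM in WBRT-28d and 34.0 CPM in ShamRT-28d, a ratio of 1.94 (1.47 to 2.60), and Fasn, the fatty acid synthase, had 39.6 CPM in WBRT-28d and 22.1 CPM in ShamRT-28d, a ratio of 1.79 (1.26 to 2.58). Elovl6, an elongase, had 174 CPM in WBRT-28d and 108 CPM in ShamRT-28d, and Me1, the malic enzyme that yields NADPH, had 95.1 CPM in WBRT-28d and 62.6 CPM in ShamRT-28d. The genes of this list with the most UMIs, Scd2 (326 CPM in WBRT-28d and 379 CPM in ShamRT-28d), Acaca (377 CPM in WBRT-28d and 341 CPM in ShamRT-28d) and Acss2 (196 CPM in WBRT-28d and 142 CPM in ShamRT-28d), lay between 0.859 and 1.38. Of other genes of lipoprotein and sterol handling, 1 of 14 was past 1.5-fold, the lysosomal lipase Lipa with 19.2 CPM in WBRT-28d and 12.4 CPM in ShamRT-28d, a ratio of 1.54 (0.959 to 2.58). Cyp7b1, an oxysterol hydroxylase, had 277 CPM in WBRT-28d and 223 CPM in ShamRT-28d, Lrp8 had 65.9 CPM in WBRT-28d and 64.8 CPM in ShamRT-28d and Osbpl2 had 42.3 CPM in WBRT-28d and 58.3 CPM in ShamRT-28d.

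Across the 11 classes the synthesis genes had their highest CPM in astrocyte-like nuclei, for 17 of 18 genes in WBRT-28d and 12 of 18 in ShamRT-28d. The same 12 were highest there in both libraries. Of these, Lss was nearly level in ShamRT-28d with inhibitory neuron-like nuclei, at 16.2 CPM in each class. The exception in WBRT-28d was Ebp, highest in mural-like nuclei at 16.7 CPM on few UMIs. In ShamRT-28d the others were highest in fibroblast-like (Acat2 at 19.9 CPM and Pmvk at 18 CPM), mural-like (Mvk at 17.5 and Sc5d at 43.7 CPM), oligodendrocyte-like (Fdps at 28.3 CPM) or endothelial-like nuclei (Ebp at 26.2 CPM). All but Fdps rested on few UMIs there, from 4 for Mvk to 11 for Acat2 and Ebp. The astrocyte-like level was close for Pmvk (17.8 CPM), Sc5d (36.7 CPM) and Fdps (25.4 CPM). It lay further below for Acat2 (11.9 CPM), Mvk (9.17 CPM) and Ebp (9.71 CPM). In each library oligodendrocyte-like nuclei were the next class for Hmgcs1, at 46.8 CPM in WBRT-28d and 48.9 CPM in ShamRT-28d, and for Msmo1, at 66.6 CPM in WBRT-28d and 86.9 CPM in ShamRT-28d. Mvd was 6.56 CPM in other neuron-like nuclei of WBRT-28d, the next class after the astrocyte-like one in that library. In ShamRT-28d the next class for Mvd was the fibroblast-like one. It had 10.8 CPM on 6 UMIs, against 12.4 CPM in astrocyte-like nuclei.

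Of the 18 members of transport, turnover and control, 6 had their highest CPM in astrocyte-like nuclei in both libraries, namely Apoe, Clu, Srebf1, Srebf2, Insig1 and Soat1. Insig1 was nearly level in ShamRT-28d with oligodendrocyte-like nuclei, at 35.6 CPM against 35.5 CPM there. The remaining members were highest in other classes. Abca1 was highest in microglia-like nuclei, at 397 CPM in WBRT-28d and 353 CPM in ShamRT-28d, and so was Npc2, at 75.2 CPM in WBRT-28d and 98.2 CPM in ShamRT-28d. Abcg1 was highest in oligodendrocyte-like nuclei, at 131 CPM in both, and lowest in astrocyte-like nuclei, at 6.14 CPM in WBRT-28d and 4.32 CPM in ShamRT-28d, and Npc1 was also highest in oligodendrocyte-like nuclei, at 134 CPM in WBRT-28d and 181 CPM in ShamRT-28d. Stard4 was highest in endothelial-like nuclei, at 25.1 CPM in WBRT-28d and 54.8 CPM in ShamRT-28d, Insig2 in fibroblast-like nuclei, at 58.2 CPM in WBRT-28d and 68.6 CPM in ShamRT-28d, and Nr1h3 in mural-like nuclei, at 36.8 CPM in WBRT-28d and 65.5 CPM in ShamRT-28d. Cyp46a1 and Lpl were highest in striatal spiny neuron-like nuclei, Cyp46a1 at 44.6 CPM in WBRT-28d and 68.4 CPM in ShamRT-28d and Lpl at 7.5 CPM in WBRT-28d and 13.5 CPM in ShamRT-28d. Lrp1 was highest in fibroblast-like nuclei of WBRT-28d (378 CPM) and microglia-like nuclei of ShamRT-28d (454 CPM), Scap in endothelial-like (67.5 CPM) and oligodendrocyte-like nuclei (58.8 CPM), and Nr1h2 in mural-like (23.4 CPM) and fibroblast-like nuclei (27.1 CPM).

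In none of the other 10 classes did the interval of the summed synthesis ratio lie above 1. In oligodendrocyte-like nuclei (2039 of WBRT-28d and 1956 of ShamRT-28d) the 17 synthesis genes without Mvd summed to 418 CPM in WBRT-28d and 505 CPM in ShamRT-28d, a ratio of 0.828 (0.780 to 0.878). The ratio was below 1 for 15 of the 17, while 53.98% of all 12750 genes had a ratio above 1. Only Ebp was past 1.5-fold, with 16.3 CPM in WBRT-28d and 24.8 CPM in ShamRT-28d, beside 6.75% of all genes at least 1.5-fold lower and 17.1% at least 1.5-fold higher in this class. The sterol segment had a ratio of 0.788 (0.735 to 0.846) and the segment up to farnesyl pyrophosphate 0.931 (0.834 to 1.04). Both oligodendrocyte-like clusters gave a summed ratio below 1, 0.859 and 0.818. In the same nuclei the summed CPM of 10 oligodendrocyte markers was 20166 in WBRT-28d and 25748 in ShamRT-28d, a ratio of 0.783, and neuron genes stood at 25.1% of their library mean in WBRT-28d and 9.95% in ShamRT-28d. The part of these in the result was not tested.

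**Figure D3:**
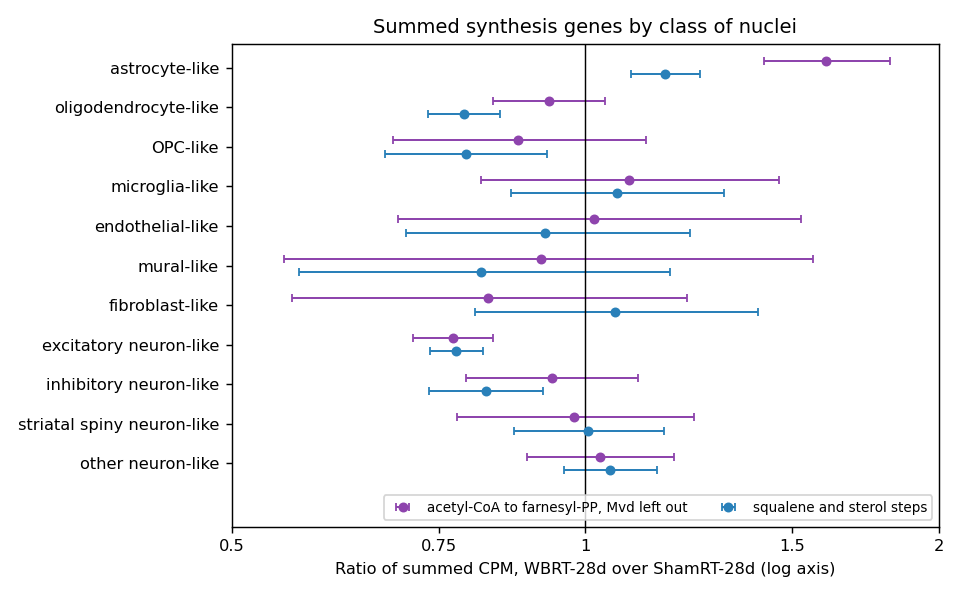
Ratio of summed CPM, WBRT-28d over ShamRT-28d (log axis), for the 6 genes up to farnesyl pyrophosphate without Mvd (purple) and the 11 squalene and sterol genes (blue) in the 11 classes, with exact 95% intervals from counting error. The astrocyte-like class (1.6 and 1.17) is the one in which both lie above 1 with intervals clear of it, and both lie below 1 with intervals clear of it in excitatory neuron-like nuclei (0.772 and 0.776).

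In OPC-like nuclei, the precursors of oligodendrocytes, the 17 genes summed to 219 CPM (619 UMIs) in WBRT-28d and 268 CPM (357 UMIs) in ShamRT-28d, a ratio of 0.816 (0.715 to 0.932). With free RNA subtracted the ratio was 0.504, and free RNA would predict 33.6% to 80.2% of the levels of these genes in WBRT-28d and 11.96% to 45.7% in ShamRT-28d. Of 16 measured, Hsd17b7 was at least 1.5-fold higher, where 9.45% of all genes were, and Ebp, Pmvk, Cyp51, Mvk and Dhcr7 at least 1.5-fold lower, where 9.11% of all genes were. Cyp51 had 20.5 CPM in WBRT-28d and 33.8 CPM in ShamRT-28d, and the others had under 50 UMIs over both libraries. Mvd, left out of this sum, went the other way with 16 UMIs in WBRT-28d and 4 in ShamRT-28d, a ratio of 1.88 with a wide interval (0.607 to 7.73). The OPC markers summed to a ratio of 0.889, and neuron genes stood at 34.6% of their library mean in WBRT-28d and 18.9% in ShamRT-28d. Among the transport genes Npc2 had 18 CPM in WBRT-28d and 28.5 CPM in ShamRT-28d, and Apoe had 674 CPM in WBRT-28d and 914 CPM in ShamRT-28d, a ratio of 0.737 (0.686 to 0.793).

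Excitatory neuron-like nuclei, 3498 of WBRT-28d and 3747 of ShamRT-28d, had 245 CPM of the 17 synthesis genes in WBRT-28d and 316 CPM in ShamRT-28d, a ratio of 0.775 (0.742 to 0.809). Idi1 (7.79 CPM in WBRT-28d and 12.9 CPM in ShamRT-28d), Tm7sf2 (5.58 CPM in WBRT-28d and 8.67 CPM in ShamRT-28d), Hsd17b7 (3.86 CPM in WBRT-28d and 7.04 CPM in ShamRT-28d) and Ebp (5.58 CPM in WBRT-28d and 9.20 CPM in ShamRT-28d) were at least 1.5-fold lower, 4 of 17, where 8.61% of all genes were, and 0 were at least 1.5-fold higher, where 8.3% were. This ratio was not shared by all clusters of the class. Clusters 0, 8 and 14, with median depths of 1480 to 2643 UMIs per nucleus, had ratios of 0.997, 0.977 and 0.985. Clusters 11, 15, 18, 21 and 29, with median depths of 6888 to 10637 UMIs, had 0.814, 0.789, 0.625, 0.717 and 0.567. Cluster 25, with median depths of 4914 UMIs in WBRT-28d and 6324 UMIs in ShamRT-28d, had 0.807. The deep clusters made up different shares of the libraries, in both directions. Cluster 15 held 140 nuclei of WBRT-28d and 366 of ShamRT-28d, cluster 11 held 422 and 263, and cluster 29 held 73 and 39. Thinning every nucleus to 1000 UMIs gave 0.921. Whether the makeup of the class carries the lower sum was not tested beyond these values.

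In inhibitory neuron-like nuclei the 17 genes summed to 264 CPM in WBRT-28d and 308 CPM in ShamRT-28d, a ratio of 0.856 (0.780 to 0.939), and 0 were at least 1.5-fold higher, where 5.39% of all genes were, and 1 lower (Hsd17b7), where 10.7% were. In striatal spiny neuron-like nuclei the ratio was 0.997 (0.882 to 1.13), with Hsd17b7 at least 1.5-fold higher, where 20.1% of all genes were, and Msmo1 lower at 19.7 CPM in WBRT-28d and 30.1 CPM in ShamRT-28d, where 9.02% were. In the other neuron-like nuclei it was 1.04 (0.967 to 1.13), with 0 of 17 past 1.5-fold, beside 7.99% of all genes higher and 13.3% lower, and Mvd alone was higher there with 37 UMIs in WBRT-28d and 10 in ShamRT-28d. The vascular and immune classes were less deep. Microglia-like nuclei gave a ratio of 1.07 (0.907 to 1.27), with 3 of 12 higher (Pmvk, Fdft1 and Sc5d), where 17.9% of all genes were, and 1 lower (Ebp), where 9.36% were. Endothelial-like nuclei gave 0.955 (0.765 to 1.20), with Sc5d and Sqle higher, where 17.5% of all genes were, and Ebp lower, where 11.4% were. Fibroblast-like nuclei gave 0.974 (0.781 to 1.22), with Nsdhl and Fdft1 higher, where 15% of all genes were, and Pmvk and Sqle lower, where 11% were. Mural-like nuclei gave 0.849 (0.636 to 1.14), and none of the 3 synthesis genes with 20 UMIs was past 1.5-fold, beside 22% of all genes higher and 12.5% lower.

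**Figure D4:**
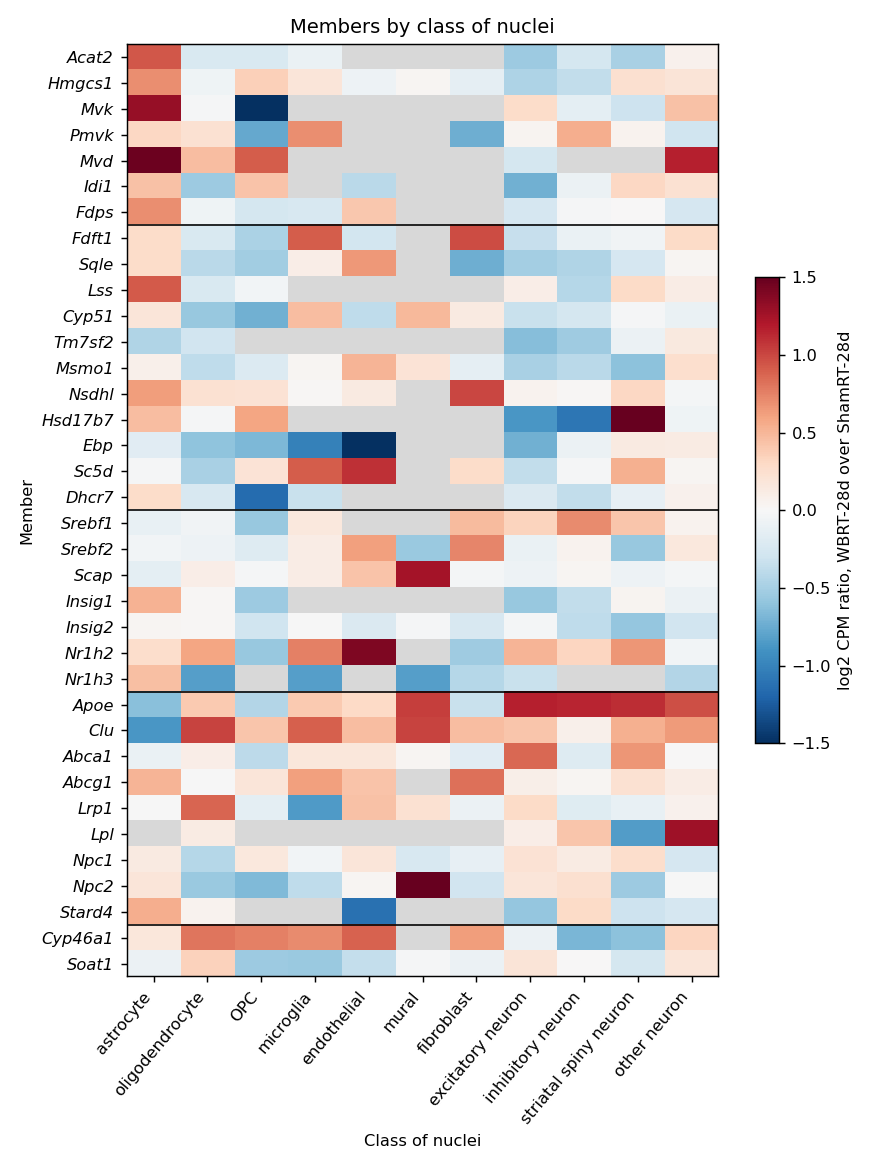
Log2 ratio of CPM, WBRT-28d over ShamRT-28d (colour, cut off at -1.5 and 1.5), for the 36 members (down the page, by role) in the 11 classes; grey squares had under 20 UMIs over both libraries. The synthesis genes are mostly red in the astrocyte column and mostly pale or blue in the oligodendrocyte and excitatory neuron columns, and Apoe is blue in the astrocyte column and red in the 4 neuron columns.

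Apoe and Clu went opposite ways in astrocyte-like nuclei and in most other classes. Apoe was higher in WBRT-28d in 8 of the 11 classes and lower in the astrocyte-like, OPC-like and fibroblast-like ones. Excitatory neuron-like nuclei had 169 CPM of Apoe in WBRT-28d and 75.6 CPM in ShamRT-28d, a ratio of 2.24 (2.09 to 2.40), and inhibitory neuron-like nuclei had 166 CPM in WBRT-28d and 75.4 CPM in ShamRT-28d, a ratio of 2.21 (1.89 to 2.59). Striatal spiny neuron-like nuclei had 177 CPM in WBRT-28d and 81.8 CPM in ShamRT-28d (2.16, 1.82 to 2.58), and other neuron-like nuclei had 159 CPM in WBRT-28d and 81.5 CPM in ShamRT-28d (1.95, 1.70 to 2.24). The ratio was above 1.5 in all 4 neuron classes and ran from 1.28 to 2.997 over the 9 excitatory neuron-like clusters. Over all kept nuclei Apoe averaged 455 CPM in WBRT-28d and 360 CPM in ShamRT-28d, and in excitatory neuron-like nuclei it stood at 37.1% of the WBRT-28d mean and 21.0% of the ShamRT-28d mean. The 12 astrocyte markers summed to 1186 CPM in excitatory neuron-like nuclei of WBRT-28d and 1015 CPM in those of ShamRT-28d, a ratio of 1.17, and to ratios of 1.43, 0.917 and 1.34 in the inhibitory, striatal spiny and other neuron-like classes. The part of free RNA in the Apoe level of neurons was not tested.

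Mural-like nuclei had 554 CPM of Apoe in WBRT-28d and 271 CPM in ShamRT-28d, a ratio of 2.05 (1.56 to 2.73), and 97.1 CPM in WBRT-28d and 48.0 CPM in ShamRT-28d of Clu, a ratio of 2.02 (1.05 to 4.27). Clu was higher in WBRT-28d in 10 of 11 classes. In oligodendrocyte-like nuclei it had 66.8 CPM (327 UMIs) in WBRT-28d and 33.0 CPM (160 UMIs) in ShamRT-28d, a ratio of 2.02 (1.67 to 2.46), in microglia-like nuclei 73.3 CPM in WBRT-28d and 39.5 CPM in ShamRT-28d (1.86, 1.30 to 2.70), and in other neuron-like nuclei 64.5 CPM in WBRT-28d and 41.3 CPM in ShamRT-28d (1.56, 1.28 to 1.91). In oligodendrocyte-like and microglia-like nuclei the astrocyte markers moved with it: their sum was 1064 CPM in WBRT-28d and 513 CPM in ShamRT-28d in oligodendrocyte-like nuclei and 1364 CPM in WBRT-28d and 760 CPM in ShamRT-28d in microglia-like nuclei, ratios of 2.07 and 1.79. In mural-like nuclei they did not, with 4754 CPM in WBRT-28d and 5501 CPM in ShamRT-28d, a ratio of 0.864. What part of the Clu UMIs came from astrocytes was not tested.

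**Figure D5:**
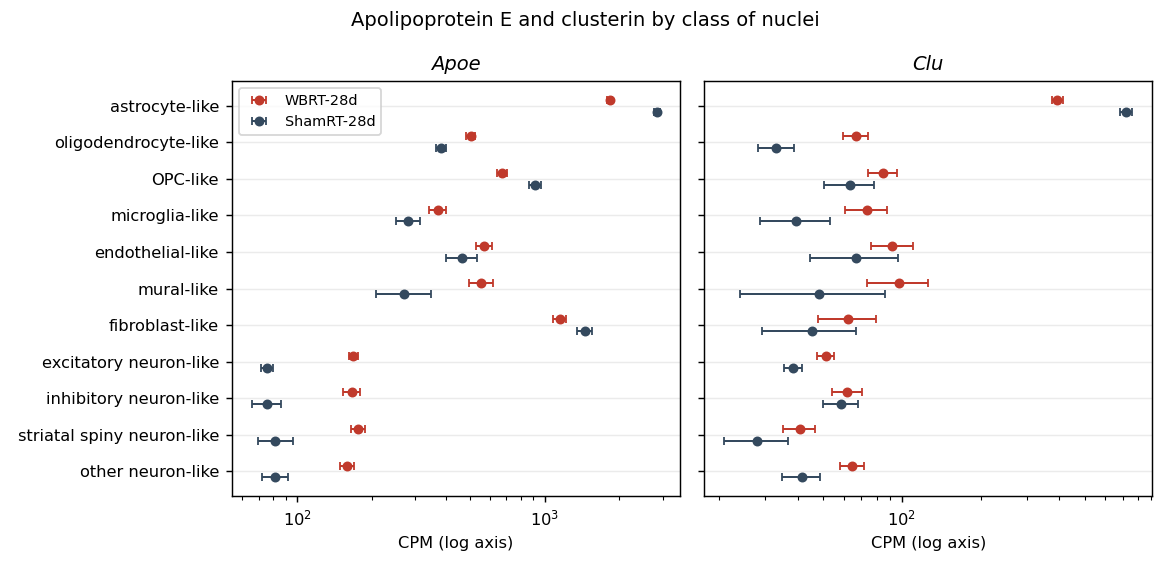
CPM (log axis) of Apoe (left) and Clu (right) in the 11 classes for WBRT-28d (red, upper point) and ShamRT-28d (dark, lower point), with exact Poisson 95% intervals from counting error. Astrocyte-like nuclei hold the highest level of both genes, both lower in WBRT-28d (Apoe 1835 CPM in WBRT-28d, 2840 CPM in ShamRT-28d; Clu 393 CPM in WBRT-28d, 720 CPM in ShamRT-28d), and the 4 neuron classes lie at 159 to 177 CPM of Apoe in WBRT-28d against 75.4 to 81.8 CPM in ShamRT-28d.

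Other members of transport, turnover and control differed in single classes. Lrp1 had 252 CPM (399 UMIs) in microglia-like nuclei of WBRT-28d and 454 CPM (495 UMIs) in those of ShamRT-28d, a ratio of 0.555 (0.485 to 0.634), where the 10 microglia markers summed to 9512 CPM in WBRT-28d and 13848 CPM in ShamRT-28d, a ratio of 0.687. In oligodendrocyte-like nuclei Lrp1 had 26.1 CPM in WBRT-28d and 14.2 CPM in ShamRT-28d, a level that free RNA would account for by 121% in WBRT-28d and 78.9% in ShamRT-28d. Abcg1 had 95.4 CPM in WBRT-28d and 62.4 CPM in ShamRT-28d in microglia-like nuclei, a ratio of 1.53 (1.14 to 2.07), and Abca1 had 12.5 CPM in WBRT-28d and 6.87 CPM in ShamRT-28d in excitatory neuron-like nuclei, a ratio of 1.82 (1.43 to 2.32), and 13.6 CPM in WBRT-28d and 8.61 CPM in ShamRT-28d in striatal spiny neuron-like nuclei. Excitatory neuron-like nuclei had the lowest Abca1 level of the 11 classes in both libraries. The part of free RNA in the Abca1 level of neurons was not tested. Stard4 had 25.1 CPM in WBRT-28d and 54.8 CPM in ShamRT-28d in endothelial-like nuclei, a ratio of 0.459 (0.260 to 0.821), on 32 UMIs in WBRT-28d and 23 in ShamRT-28d. Srebf2 had 91.0 CPM in WBRT-28d and 59.5 CPM in ShamRT-28d in endothelial-like nuclei and 72.0 CPM in WBRT-28d and 43.3 CPM in ShamRT-28d in fibroblast-like nuclei. Nr1h2 had 17.2 CPM in WBRT-28d and 11.3 CPM in ShamRT-28d in oligodendrocyte-like nuclei and 8.52 CPM in WBRT-28d and 5.38 CPM in ShamRT-28d in striatal spiny neuron-like nuclei, where Lpl had 7.5 CPM in WBRT-28d and 13.5 CPM in ShamRT-28d.

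Cyp46a1 was lower in WBRT-28d in the 2 classes with its highest CPM in ShamRT-28d. It had 44.6 CPM (220 UMIs) in striatal spiny neuron-like nuclei of WBRT-28d and 68.4 CPM (127 UMIs) in those of ShamRT-28d, a ratio of 0.652 (0.522 to 0.818), and 30.03 CPM in WBRT-28d and 48.2 CPM in ShamRT-28d in inhibitory neuron-like nuclei, a ratio of 0.623 (0.480 to 0.807). The striatal spiny neuron-like class pooled cluster 4, with 1050 nuclei of WBRT-28d and 382 of ShamRT-28d, and cluster 22, with 194 and 11. The part of this makeup in the ratio was not tested. In excitatory neuron-like nuclei the Cyp46a1 ratio was 0.94 and in other neuron-like nuclei 1.249. In oligodendrocyte-like nuclei, where free RNA would predict 50.9% of its level in WBRT-28d and 37.2% in ShamRT-28d, it had 13.7 CPM in WBRT-28d and 7.84 CPM in ShamRT-28d, a ratio of 1.75 (1.16 to 2.67).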

How the data were processed

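The 36 members and the lists were chosen with earlier results of these data known. The deposited matrices hold raw counts of UMIs per gene and called barcode, which the authors made with Cell Ranger 5.0.0 and a custom pre-mRNA reference of mm10 (Seurat 3.0 and R 3.5.3 are also in the submitters' notes). WBRT-28d held 15986 barcodes with 68423922 UMIs and ShamRT-28d 11469 with 45511469. Nuclei with under 500 genes or over 5% mitochondrial UMIs were left out, and doublets scored against simulated pairs were removed at the number that loading predicts (0.8% per 1000 barcodes), 12.5% and 8.89% of barcodes. Both libraries were clustered together (2000 variable genes without members, 30 components, 20 neighbors, Louvain at resolution 0.8; Python 3.11.15, numpy 2.4.6, scipy 1.17.1, python-igraph 0.11.9). The 34 clusters were named from marker scores of at least 0.4, with limits chosen once the clusters were known, while 4 clusters (245 nuclei of WBRT-28d and 26 of ShamRT-28d) stayed unnamed. The UMIs of a class were added up within each library. Single libraries allow no test. Intervals are exact binomial or Poisson ones, tested on simulated data. Members were named in astrocyte-like nuclei with at least 100 UMIs, in other classes with at least 50 UMIs and a 1.5-fold difference, and in the class where they were highest. The 6 under 100 UMIs in astrocyte-like nuclei are given there so that every member is accounted for. Others outside this rule were named after their values had been seen. The alternatives are other cell definitions, filters, scalings, thinning and free RNA. Coordinates are GENCODE M21 on GRCm38.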

Additional observations from a re-analysis of the deposited data

Results flagged for a closer look

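In 4 members the ratio of WBRT-28d to ShamRT-28d was past 1.5-fold in one direction in a class of nuclei and past it in the other direction in another class, each on at least 50 UMIs. The share of all genes that meet the same rule was not counted, so 4 of 36 members cannot be called many or few. The differences between classes were not tested, since each condition has 1 library and all classes share both libraries. Apoe had a ratio of 2.24 in excitatory neuron-like nuclei and 0.646 in astrocyte-like nuclei. Clu had 2.02 in oligodendrocyte-like nuclei and 0.545 in astrocyte-like nuclei. Lrp1 had 1.84 in oligodendrocyte-like nuclei, at a level which free RNA would predict by 121% in WBRT-28d against 78.9% in ShamRT-28d, and 0.555 in microglia-like nuclei. Cyp46a1 had 1.75 in oligodendrocyte-like nuclei and 0.623 in inhibitory neuron-like nuclei.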

How the results depend on the processing

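The ratio of Mvd in astrocyte-like nuclei lay between 1.85 and 3.82 under the alternatives run. The count of the 17 other synthesis genes past 1.5-fold there, 6, was 0 in cluster 19 alone (of 7 measured, where 18.7% of all genes were higher and 14.6% lower), 1 in cluster 20 alone (of 10, where 16.4% were higher and 12.1% lower) and 1 at a fold of 2 (where 3.13% were higher and 3.04% lower). Their median log2 ratio of 0.31 was 0.11 with doublets kept, 0.49 as a mean over nuclei, 0.042 in cluster 19 and 0.42 in cluster 20, and their summed ratio of 1.26 was 1.1 with doublets kept and 0.958, on the other side of 1, in cluster 19. The median of transport, turnover and control, 0.03, was 0.16 as a mean over nuclei, -0.080 with free RNA subtracted, -0.089 in cluster 19 and -0.090 in cluster 20. With free RNA subtracted the summed synthesis ratio was 0.709 in oligodendrocyte-like and 0.504 in OPC-like nuclei. In excitatory neuron-like nuclei it was 0.732 with the stricter filter on nuclei, 0.881 as a mean over nuclei and 0.921 after thinning. In an alternative chosen after seeing the data it was 0.997, 0.977, 0.814, 0.985, 0.625, 0.717 and 0.567 in clusters 0, 8, 11, 14, 18, 21 and 29 alone. Of the members with a reported ratio past 1.5 in either direction, Mvk at 0.772 and Fdps at 0.989 in cluster 19, and Lpl at 1.43 after thinning, changed sides of 1. Members within 1.5-fold were not screened for this, and some of them changed sides too. Examples are Pmvk at 0.556 and Hsd17b7 at 0.618 in cluster 19 and Tm7sf2 at 1.37 in cluster 20, all on few UMIs. Of 467 other values of single members and classes, 405 stayed within the interval of the reported value. The cause of these shifts was not tested. No paired analysis was possible because each condition has 1 library. In astrocyte-like nuclei 6 members had under 100 UMIs (Lpl, Abcg1, Nr1h3, Ebp, Stard4 and Nr1h2), and spread between mice is not in any interval.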

Other observations

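Border macrophage-like nuclei, too few for the 11 classes (102 of WBRT-28d and 53 of ShamRT-28d), held more Apoe than any of them, 4462 CPM (1046 UMIs) in WBRT-28d and 10580 CPM (1296 UMIs) in ShamRT-28d, a ratio of 0.422 (0.388 to 0.458, counting error only). Their Abca1 level was 567 CPM in WBRT-28d and 702 CPM in ShamRT-28d. Choroid plexus-like nuclei (105 of WBRT-28d and 45 of ShamRT-28d) had 311 CPM in WBRT-28d and 174 CPM in ShamRT-28d of Apoe, a ratio of 1.79 (1.27 to 2.55), and 133 CPM in WBRT-28d and 120 CPM in ShamRT-28d of Clu.

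Cyp46a1, for which the neuron classes had the highest CPM, was at least 1.5-fold higher in WBRT-28d in oligodendrocyte-like (1.75), OPC-like (1.69), microglia-like (1.64), endothelial-like (1.85) and fibroblast-like nuclei (1.55). The intervals held 1 in OPC-like (0.823 to 3.83), microglia-like (0.834 to 3.42), endothelial-like (0.704 to 6.12) and fibroblast-like nuclei (0.583 to 4.80), each on few UMIs. Of all genes, 17.1%, 9.45%, 17.9%, 17.5% and 15% were at least 1.5-fold higher in these classes. In the same classes the 8 neuron genes stood at 25.1%, 34.6%, 35.0%, 46.6% and 25.1% of their library mean in WBRT-28d, against 9.95%, 18.9%, 17.5%, 24.2% and 12.4% in ShamRT-28d. In mural-like nuclei Cyp46a1 had a ratio of 0.511, on 8 UMIs in WBRT-28d and 6 in ShamRT-28d. The part of neuron RNA in these ratios was not tested. Ebp was lower in WBRT-28d in oligodendrocyte-like (0.660), OPC-like (0.627), microglia-like (0.496), endothelial-like (0.330) and excitatory neuron-like nuclei (0.606), and its ratio was 0.885 in astrocyte-like nuclei. The interval held 1 in OPC-like nuclei (0.305 to 1.32), and endothelial-like nuclei held 11 Ebp UMIs in each library. The Ebp ratio was 0.607 (0.222 to 1.69) in fibroblast-like and 0.958 (0.276 to 4.19) in mural-like nuclei, both on few UMIs.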
